A study of Mus musculus with 2 samples.

Results

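The MS4A (membrane-spanning 4-domain subfamily A) genes examined here were Ms4a1, Ms4a4a, Ms4a4b, Ms4a4c, Ms4a6b, Ms4a6c, Ms4a6d and Ms4a7. They were taken by symbol from the gene list of the series and make up 8 of its 32285 genes and 8 of its 19 Ms4a genes. The rule used no measured value. CD45+ cells, that is, all leukocytes, were sorted from MC38 tumors and sequenced by the droplet method of 10x Genomics, which reads the 3′ end of transcripts and counts molecules by unique molecular identifiers (UMIs). The tumors grew under the skin of both flanks of C57BL/6 mice after injection of MC38, a colon cancer line of that strain. The right tumor was treated by microwave ablation (MWA) at about 300 mm3, and the cells came from the left tumor, which was not ablated itself, on day 8. Each group had 1 library. The MWA plus TIGIT group received, besides ablation, an antibody that blocks the T cell checkpoint receptor TIGIT, by 3 intraperitoneal injections at intervals of 3 days from day 1 according to the labels. Both groups had thus been ablated. Per the study's methods the MWA group received an isotype control antibody. The number of mice behind each library was not given, and no library from mice without ablation was analysed here.

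MS4A proteins cross the membrane 4 times and are found mainly on cells of the blood lineages. Ms4a1 encodes CD20, the target of rituximab, which sits near the B cell receptor. Ms4a2, outside the members, encodes the beta chain of the high-affinity receptor for IgE on mast cells. Ms4a4b has been described as a T cell protein that modulates activation, and Ms4a4a and Ms4a7 are known from macrophages. The family is larger in mice than in humans in the Ms4a4 and Ms4a6 branches, so the single-letter suffixes mark copies of each other.

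The 8 genes lay in 1 cluster on chromosome 19, at chr19:11249675-11604849 of GRCm38 in the GENCODE annotation, a span of 355 kb. From the low end the order was Ms4a1 (chr19:11249675-11266241), Ms4a7 (chr19:11321039-11336146), Ms4a4a (chr19:11375523-11392790), Ms4a4c (chr19:11404770-11427246), Ms4a4b (chr19:11443553-11467055), Ms4a6c (chr19:11469366-11482192), Ms4a6b (chr19:11516512-11531256) and Ms4a6d (chr19:11586604-11604849). Ms4a1, Ms4a7 and Ms4a6d were on the minus strand and the other 5 on the plus strand. The end of Ms4a4b and the start of Ms4a6c were 2311 bases apart.

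Upstream sequences of 6 members were available from RefSeq (GRCm38.p6): Ms4a4a, Ms4a4b, Ms4a4c, Ms4a6b, Ms4a6c and Ms4a7. Those of 2 pairs, Ms4a4b with Ms4a4c and Ms4a6b with Ms4a6c, are printed because they were the most alike of all pairs and because the members of each pair differed in how their UMIs were divided among the cell classes. The windows are Ms4a4b at chr19:11443308-11443552 and Ms4a4c at chr19:11407411-11407660, both plus strand, written 5′ to 3′ and ending before the first annotated exon base or the start site. Capitals mark stretches of 12 or more bases that both sequences of the pair hold.
Ms4a4b: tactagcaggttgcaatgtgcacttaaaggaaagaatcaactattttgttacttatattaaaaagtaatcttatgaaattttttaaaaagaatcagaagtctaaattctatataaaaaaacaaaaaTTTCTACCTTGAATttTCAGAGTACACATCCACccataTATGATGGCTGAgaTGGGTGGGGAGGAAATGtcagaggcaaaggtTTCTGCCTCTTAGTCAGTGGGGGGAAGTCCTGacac
Ms4a4c: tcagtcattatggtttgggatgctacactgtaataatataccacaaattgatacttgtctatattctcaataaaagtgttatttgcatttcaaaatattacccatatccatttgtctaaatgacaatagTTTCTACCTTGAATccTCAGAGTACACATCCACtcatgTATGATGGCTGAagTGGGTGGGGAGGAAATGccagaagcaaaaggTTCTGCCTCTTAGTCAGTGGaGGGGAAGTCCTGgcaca

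For the second pair the windows are Ms4a6b at chr19:11518309-11518452 and Ms4a6c at chr19:11469118-11469365, also on the plus strand. The window of Ms4a6b is short because 106 of its bases lie in an annotated exon and were removed, and the windows of Ms4a4c and Ms4a6b lie within the annotated span of their genes, before a later start.
Ms4a6b: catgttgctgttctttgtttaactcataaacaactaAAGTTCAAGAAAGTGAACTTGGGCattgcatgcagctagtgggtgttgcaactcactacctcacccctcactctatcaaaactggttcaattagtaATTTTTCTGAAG
Ms4a6c: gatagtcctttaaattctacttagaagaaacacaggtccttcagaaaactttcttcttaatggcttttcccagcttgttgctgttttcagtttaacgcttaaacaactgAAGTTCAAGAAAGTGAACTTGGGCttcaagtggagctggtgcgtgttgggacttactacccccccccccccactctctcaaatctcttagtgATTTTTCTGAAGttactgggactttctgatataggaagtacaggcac

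In the best ungapped placement, Ms4a4b and Ms4a4c agreed at 57.6% of 245 bases, with a longest identical run of 20 bases, and Ms4a6b and Ms4a6c at 69.4% of 144 bases, with a longest run of 24 bases. The other pairs of windows agreed at 34.6% to 43.5%, where the placement of each pair is also its best. The shared stretch of Ms4a4b and Ms4a4c held GAGGAA, the core letters bound by PU.1, which 23.3% of 32851 RefSeq windows of the same length hold on either strand. None of the 6 members' windows held a pair of GAAA words with 2 bases between them, as in interferon-response elements, which 2.98% of windows hold, or the STAT letters TTCNNNGAA, which 7.02% hold. These motifs were chosen after the values below were known, and a match or its absence describes these bases only.

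The similarity also bears on the counting. Of all 50-base words in the transcripts of a member, 10.5% of those of Ms4a6c and 8.19% of those of Ms4a4c occurred in a transcript of another gene, and the share was 0.306% to 3.57% in Ms4a1, Ms4a4b, Ms4a6b, Ms4a6d and Ms4a7 and 0% in Ms4a4a. Ms4a4b and Ms4a4c shared 135 words, Ms4a6b and Ms4a6c 117, and Ms4a6b and Ms4a6d 40. How the counting treated reads that fit more than 1 of these copies was not tested. Ms4a4c, Ms4a6b and Ms4a6c also each overlapped an exon of a gene on the other strand.

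The MWA library held 10217 barcodes with 66152465 UMIs and the MWA plus TIGIT library 10190 barcodes with 78751205 UMIs. After filtering, 9231 and 9127 cells were kept, with medians of 5331 and 6327 UMIs per cell, and 34 kept barcode sequences occurred in both libraries. Clustering with all Ms4a genes left out gave 32 clusters, named from marker genes where these were clear and otherwise by leading genes. Names with the ending -like rest on these genes alone. The UMIs of a class in a library were summed and are given as counts per 1000000 UMIs of that class (CPM), with exact Poisson 95% intervals. Values are in the order MWA, MWA plus TIGIT throughout. All intervals cover counting error only, and with 1 library per group the groups cannot be compared by a test: a difference between the libraries cannot be told apart from a difference between mice, sorts or library preparations.

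The 8 members were spread over the leukocytes in different ways. Of the UMIs of Ms4a1, 95.96% and 86.8% lay in B-like cells. Of those of Ms4a4b, 95.9% and 96.9% lay in T and NK classes. Monocyte-like and macrophage-like classes held 96.6% and 97.6% of the UMIs of Ms4a7, 96.2% and 97.1% of those of Ms4a6c, 94.2% and 95.8% of those of Ms4a6d and 96.2% and 96.6% of those of Ms4a4a. The other 2 members were divided: T and NK classes held 34.6% and 33.6% of the UMIs of Ms4a6b and 15.99% and 9.79% of those of Ms4a4c, and most of the rest lay in the monocyte-like and macrophage-like classes. Of the pairs with like upstream sequences, Ms4a4b thus lay mainly in T and NK classes and Ms4a4c mainly in myeloid classes, while Ms4a6b lay in both and Ms4a6c mainly in myeloid classes.

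**Figure D1:**
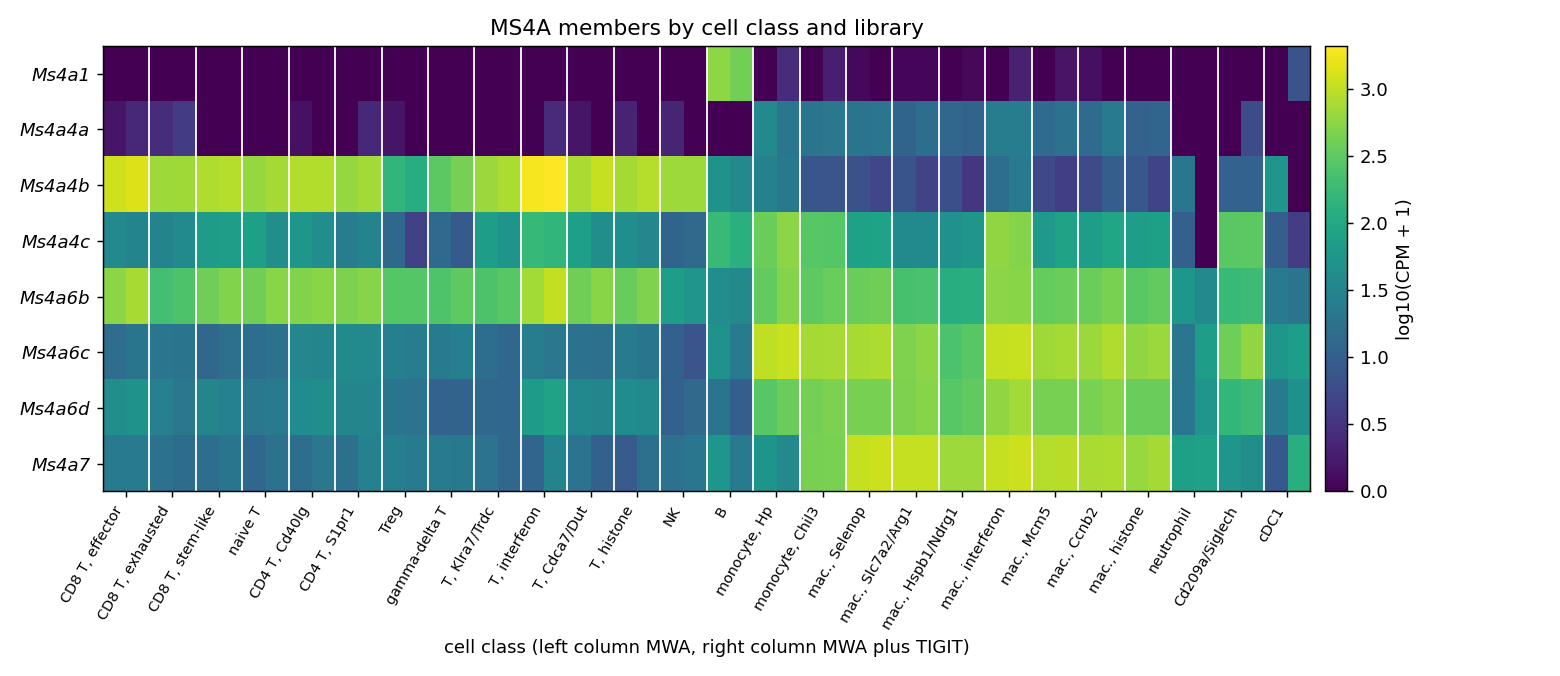
Level of each member (rows) as log10(CPM + 1) in 26 cell classes, with the MWA library in the left and the MWA plus TIGIT library in the right column of each class. Ms4a1 is bright in B-like cells alone, Ms4a4b across the T and NK classes, Ms4a6b across T cells and macrophages, and Ms4a6c, Ms4a6d and Ms4a7 across the monocyte-like and macrophage-like classes.

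Ms4a1 marked a small class. The B-like class had 81 and 63 cells, and its level of Ms4a1 was 569 CPM (95% interval 461 to 696) in the MWA library and 415 CPM (335 to 509) in the MWA plus TIGIT library, from 95 and 92 UMIs. At a common depth of 1000 UMIs per cell, 34.6% (exact binomial 95% interval 24.2 to 46.2) and 29.5% (18.5 to 42.6) of B-like cells had a Ms4a1 UMI, and without thinning 62.96% and 66.7%, at median depths of 1859 and 2425 UMIs. No UMI of Ms4a1 was found in 1166 and 1236 CD8+ T-like cells, which, at a floor of 3 counts, allows a share of cells with a UMI of up to 0.257% and 0.243% and does not limit the share that express the gene. Of macrophage-like cells, 0.109% and 0.105% had a UMI before thinning. The class was not pure: its leading genes included Jchain and immunoglobulin heavy chain genes, and the 4 plasma cell markers summed to 407 and 7978 CPM in it. The log2 ratio of MWA plus TIGIT over MWA was −0.46 (95% interval −0.88 to −0.026). In the MWA plus TIGIT library, 3 cells had at least 10 UMIs of the plasma cell markers. They held 26.5% of the UMIs of the class and 0 of Ms4a1, while the MWA library had 0 such cells. Without them, an alternative chosen after seeing the data, the level of Ms4a1 was 569 CPM (461 to 696) and 565 CPM (455 to 692) and the log2 ratio −0.012. Of the 2 members tested in the class none was past 1.5-fold, where 31.2% of genes were.

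The genes of the B cell receptor complex and its surroundings that are known as neighbors of CD20 had the same leading class. Cd79a, a signaling chain of the receptor, was at 2577 and 1837 CPM in B-like cells, and Cd79b, the other chain, at 1061 and 966 CPM. Cd22, an inhibitory receptor, was at 114 and 117 CPM there, and Cr2, the complement receptor, at 29.96 and 54.2 CPM. Cr2 had only 8 and 16 UMIs in all kept cells. Most UMIs of Cd79b and Cd22 lay outside B-like cells, although their level was highest there. The plasma-rich cells were not left out of these levels, and the 6 B cell markers, which do not include Ms4a1, summed to 7149 and 5158 CPM with those cells and to 7149 and 6461 CPM without them. The T cell markers summed to 77.9 and 478 CPM with those cells and to 77.9 and 552 CPM without them, and their part in these values was not tested.

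Ms4a4b was the T cell member. It was at 909 CPM (95% interval 883 to 936) in the MWA library and 1120.3 CPM (1091 to 1150.0) in the MWA plus TIGIT library in all CD8+ T-like cells and at 814 and 831 CPM in CD4+ T-like cells. NK-like cells had 679 and 686 CPM. At 1000 UMIs per cell, 60.3% (exact binomial 95% interval 57.4 to 63.1) and 66.4% (63.7 to 69.1) of CD8+ T-like cells had a UMI of Ms4a4b, and 91.9% and 94.01% without thinning, which left out 13 and 18 cells. In macrophage-like cells, which should lack it, the thinned share was 0.682% and 0.448% and the level 6.06 and 4.82 CPM. The median cell of the macrophage-like classes held 8735 and 10640.0 UMIs, and that of the CD8+ T-like classes 3779 and 3508.

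Within T cells the level of Ms4a4b was uneven. The interferon-induced T-like class led with 1881 and 2094 CPM and the effector CD8+ T-like class followed with 1187 and 1396 CPM, and the intervals of both libraries set these classes apart from each other and from the class that came next. In every order of classes, a class stood apart when its lowest bound over both libraries exceeded the highest bound of the next class over both. Otherwise the 2 classes are said to overlap. Below them neighbors in the order of Ms4a4b overlapped down to gamma-delta T-like cells, which stood apart from Treg-like cells, and these apart from B-like cells. Exhausted CD8+ T-like cells, led by Pdcd1, Lag3 and Ccl1, had 692 and 694 CPM, so effector cells had 1.72 times (1.601 to 1.84) and 2.01 times (1.87 to 2.16) the level of exhausted cells. Gamma-delta T-like cells had 307 and 429.7 CPM. Treg-like cells stood lowest of the named T cell classes, with 151 CPM (95% interval 134 to 170.1) in the MWA library and 115 CPM (99.5 to 131) in the MWA plus TIGIT library. CD4+ T-like cells exceeded this level, which was 0.186 times (0.163 to 0.2104) and 0.138 times (0.119 to 0.159) theirs.

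The low level in Treg-like cells stood opposite to that of Tnfrsf18. This gene encodes GITR, a costimulatory receptor of T cells with which the Ms4a4b protein has been reported to associate. Tnfrsf18 had its highest level in Treg-like cells, at 1083 and 1352 CPM, against 279 and 287 CPM in CD4+ T-like and 257 and 295 CPM in exhausted CD8+ T-like cells.

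Ms4a6b was shared between T cells and macrophages. It was at 387 CPM (95% interval 369 to 404) in the MWA library and 581 CPM (559.8 to 602) in the MWA plus TIGIT library in CD8+ T-like cells, at 488 and 536 CPM in CD4+ T-like cells and at 302 and 318 CPM in macrophage-like cells. The effector CD8+ T-like class had 556 and 774 CPM and the exhausted class 212 and 245 CPM, so the effector class had 2.63 times (2.34 to 2.96) and 3.16 times (2.82 to 3.56) the level of the exhausted class. Treg-like cells had 276 and 277 CPM, 0.567 and 0.516 times the level of CD4+ T-like cells, so their gap was smaller than for Ms4a4b. NK-like cells had 71.3 and 53.3 CPM, which was 0.184 and 0.0918 times the level in CD8+ T-like cells, where the same ratio for Ms4a4b was 0.747 and 0.613. Among the T and NK classes, then, Ms4a4b spanned both lineages and Ms4a6b was mostly on the T cell side. In the order of its classes, each of the first 24 overlapped with the next, so T cell and macrophage-like classes were interleaved. In B-like cells Ms4a6b was at 41.9 and 36.1 CPM, from 7 and 8 UMIs.

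**Figure D2:**
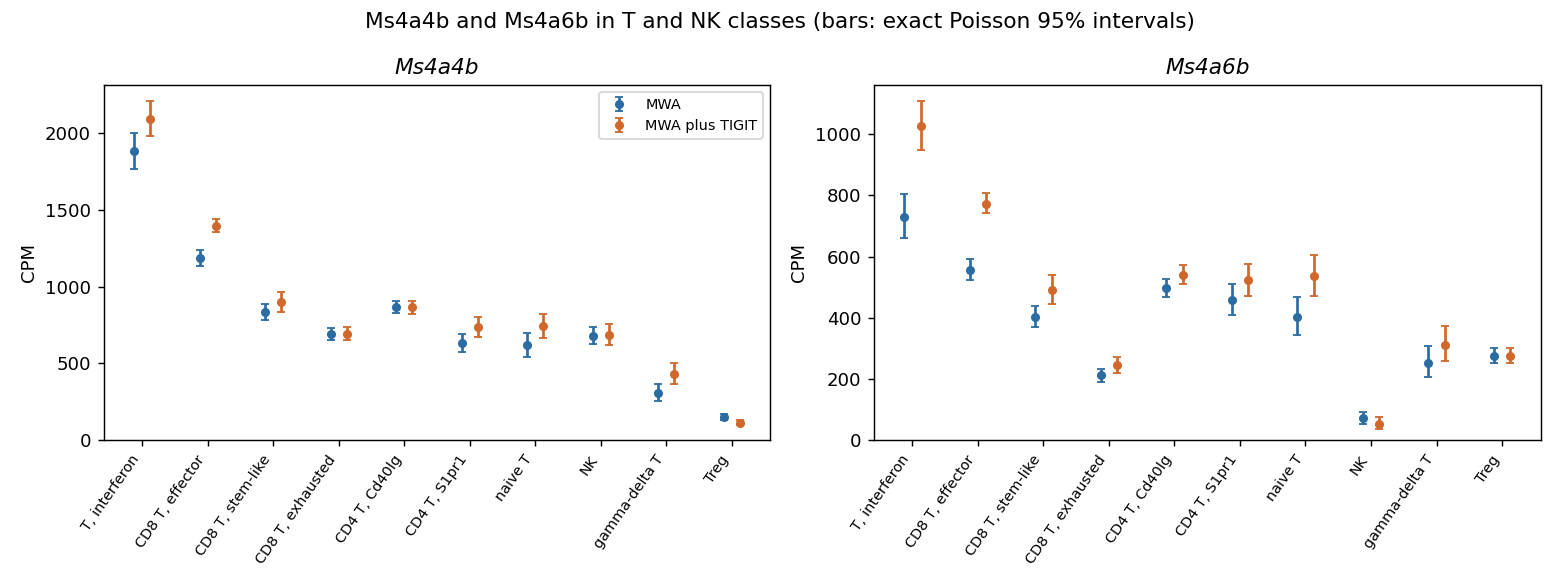
Level of Ms4a4b and Ms4a6b in CPM (vertical axis, from 0) in 10 T and NK classes, with points for the 2 libraries and bars for exact Poisson 95% intervals. Both genes are highest in the interferon-induced T-like class. Ms4a4b is lowest in Treg-like cells, and Ms4a6b in NK-like cells.

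In the myeloid cells, Ms4a7 and Ms4a4c ran in opposite directions between monocyte-like and macrophage-like classes. The monocyte-like class led by Hp and Ifitm6, with 116 and 110 cells, had 51.1 CPM (95% interval 33.4 to 74.9) in the MWA library and 35.4 CPM (22.2 to 53.6) in the MWA plus TIGIT library of Ms4a7. The monocyte-like class led by Chil3 and Ccl24 had 436 and 454 CPM, and the Selenop macrophage-like class 1079 CPM (95% interval 1059.9 to 1099) in the MWA library and 1184 CPM (1165 to 1202) in the MWA plus TIGIT library. The Hp class thus had 0.0474 times (0.0309 to 0.0695) and 0.0299 times (0.0187 to 0.0453) the level of the Selenop class. Ms4a4c was at 372 CPM (95% interval 321 to 429) in the MWA library and 549 CPM (492 to 610.1) in the MWA plus TIGIT library in the Hp class, at 284 and 278 CPM in the Chil3 class and at 79.4 and 84.1 CPM in the Selenop class, which puts the Hp class at 4.68 times (3.98 to 5.49) and 6.52 times (5.76 to 7.37) the Selenop level.

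Ms4a6c and Ms4a6d were found in both. Ms4a6c was at 1003 and 1109 CPM in the Hp monocyte-like class and 762 and 805 CPM in the Selenop class, and Ms4a6d at 287 and 378 CPM and 432 and 439.9 CPM. The classes of macrophages differed as well. The class led by Hspb1, Mmp12 and Ndrg1, genes that include targets of hypoxia, had 0.316 and 0.356 times the Selenop level of Ms4a6c, 0.305 and 0.304 times that of Ms4a6b, 0.593 and 0.671 times that of Ms4a4c, 0.6697 and 0.742 times that of Ms4a6d and 0.629 and 0.569 times that of Ms4a7. The class led by Slc7a2, Ltc4s and Arg1 had 0.6298 and 0.685 times the Selenop level of Ms4a6c, 0.5995 and 0.587 times that of Ms4a6b and 0.476 and 0.453 times that of Ms4a4c, but 1.06 and 1.19 times that of Ms4a6d and 0.997 and 0.9102 times that of Ms4a7. All 5 members were lower in the hypoxia-rich class, whereas in the Arg1 class Ms4a6d and Ms4a7 were nearer to the Selenop level than Ms4a4c, Ms4a6b and Ms4a6c were. In their orders of classes, Ms4a6d led with the interferon-induced macrophage-like class at 592 and 717 CPM, apart from the next class. Ms4a6c led with that class and the Hp class, at 1084 and 1112 CPM and 1003 and 1109 CPM, which overlapped with each other and stood apart from the rest. The first 4 classes of Ms4a7, which included the Selenop, Arg1 and interferon-induced classes, overlapped from neighbor to neighbor.

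**Figure D3:**
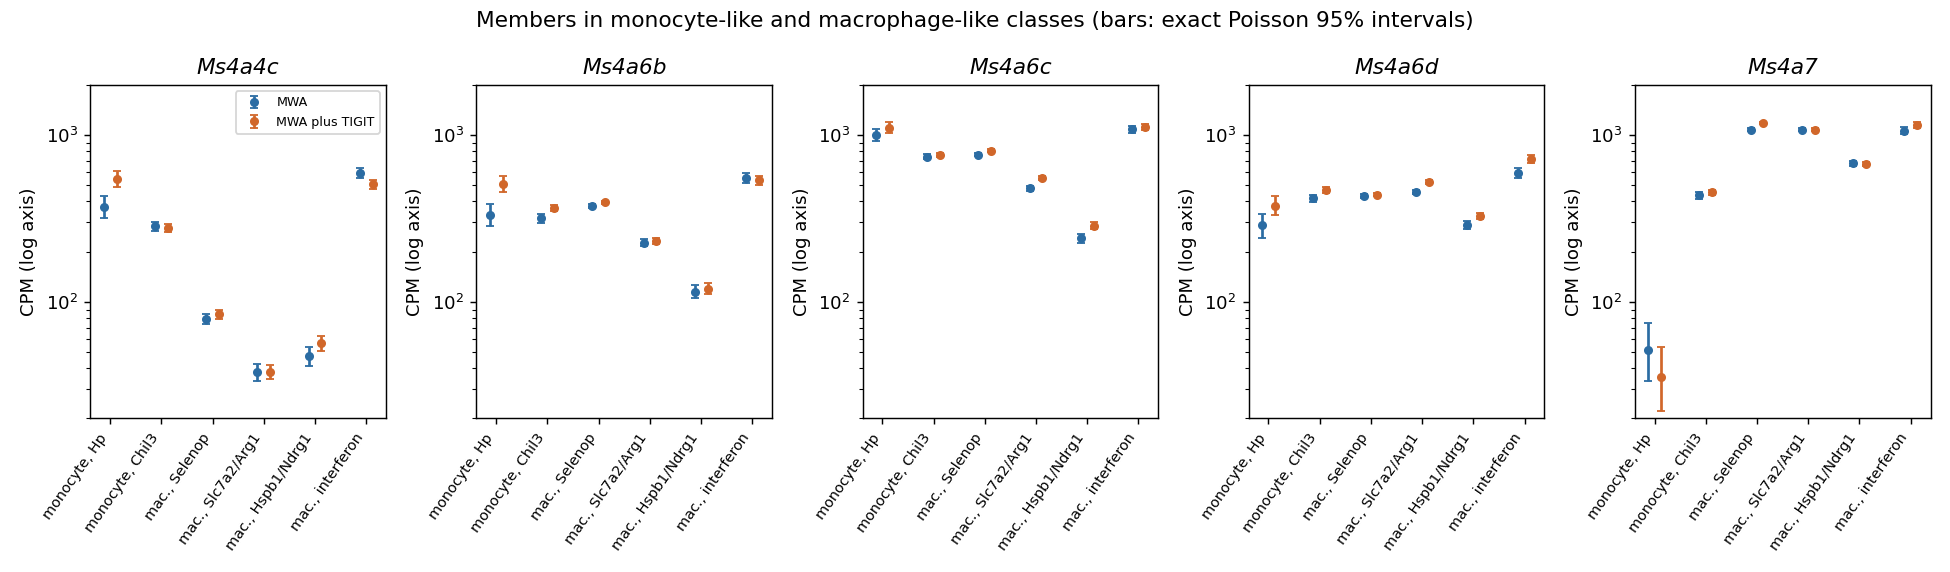
Level of 5 members in CPM (vertical log axis) in 2 monocyte-like and 4 macrophage-like classes, with points for the 2 libraries and bars for exact Poisson 95% intervals. Ms4a7 is lowest in the Hp monocyte-like class and high in all 4 macrophage-like classes, while Ms4a4c is lower in these except in the interferon-induced class, where it is at 596 and 508 CPM against 372 and 549 CPM in the Hp class.

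Ms4a4a, known from alternatively activated macrophages, was scarce. In all macrophage-like cells it was at 14.3 CPM (95% interval 13.02 to 15.6) in the MWA library and 16.5 CPM (15.3 to 17.7) in the MWA plus TIGIT library, and its leading class, the Hp monocyte-like cells, had 35.4 and 19.3 CPM from 18 and 12 UMIs. The intervals of each of the first 9 classes in its order overlapped with those of the next. Classes farther apart in the order did differ: the hypoxia-rich class had 0.6404 times (0.464 to 0.871) and 0.5405 times (0.403 to 0.716) the Selenop level. The thinned share of macrophage-like cells with a UMI was 1.501% and 1.32%, and 11.2% and 14.9% without thinning. Trem2, a receptor on macrophages whose soluble level in humans has been tied to the MS4A locus, was abundant by contrast, at 917 and 947 CPM in macrophage-like cells, and Tyrobp, the adaptor of that receptor, was at 2556 and 2476 CPM.

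Classes rich in interferon-induced transcripts had high levels of several members in both lineages. Against the other T cells, the interferon-induced T-like class (162 and 166 cells, led by Ifit1, Ifit3 and Isg15) had 3.69 times (2.93 to 4.595) and 4.44 times (3.55 to 5.52) the level of Ms4a4c, 2.58 times (2.42 to 2.75) and 2.41 times (2.27 to 2.54) that of Ms4a4b, 2.08 times (1.44 to 2.92) and 2.51 times (1.85 to 3.33) that of Ms4a6d and 1.93 times (1.74 to 2.13) and 2.08 times (1.92 to 2.26) that of Ms4a6b. Ms4a6c did not differ there beyond counting error, at 1.1003 times (0.5796 to 1.91) and 0.955 times (0.503 to 1.66). The other T cells pool 11 classes, among them 728 and 595 Treg-like cells, in which Ms4a4b and Ms4a4c were low. The effector CD8+ T-like class alone was nearer for Ms4a4b, at 1187 and 1396 CPM against 1881 and 2094 CPM. It was also nearer for Ms4a6b, at 556 and 774 CPM against 731 and 1027 CPM. For Ms4a4c it was farther, at 35.4 and 30.4 CPM against 166 and 153 CPM. Against the other macrophages, the interferon-induced macrophage-like class (168 and 196 cells, led by Rsad2 and Cxcl10) had 9.75 times (8.97 to 10.6) and 7.53 times (6.999 to 8.09) the level of Ms4a4c, 1.89 and 1.74 times that of Ms4a6b, 1.84 and 1.72 times that of Ms4a6c, 1.43 and 1.62 times that of Ms4a6d and 1.13 and 1.17 times that of Ms4a7. That class also had 1.73 times (1.17 to 2.48) and 1.51 times (1.11 to 2.03) the level of Ms4a4a. Ms4a4b, the T cell member, was at 2.64 times (1.57 to 4.196) and 5.34 times (3.72 to 7.51) the level of the other macrophages there, from 20 and 43 UMIs, and the part of T cell RNA in this was not tested. Ms4a4c had the highest ratio in both lineages and Ms4a7 the lowest in macrophages. The clusters were formed without the members, but the same cells gave both, so these ratios are descriptions with no test.

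Ms4a4c was also read in lymphoid and dendritic cells. B-like cells had 179.8 CPM (95% interval 121 to 257) in the MWA library and 126 CPM (83.96 to 183) in the MWA plus TIGIT library, from 30 and 28 UMIs. The cluster led by Cd209a and Siglech, with 50 and 50 cells, had 297 and 301 CPM. The interferon-induced T-like class had 166 and 153 CPM, the stem-like CD8+ class 65.3 and 69.6 CPM, and Treg-like cells 11.7 and 3.34 CPM, from 21 and 6 UMIs. The neutrophil-like class had fewer than 20 UMIs of every member, with 98 and 87 cells and medians of 928 and 1142 UMIs per cell.

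The low counts of myeloid members in lymphoid cells were set against those of C1qa, a complement gene of macrophages. Which cells any free RNA came from was not known, so the ratio in macrophage-like cells is a reference and not an expected value. Apoe, another gene abundant in macrophages, did not keep 1 ratio to C1qa: it had 2.58 and 2.96 UMIs per C1qa UMI in macrophage-like, 3.34 (3.02 to 3.68) and 3.63 (3.297 to 3.99) in CD8+ T-like and 5.69 (3.89 to 8.56) and 7.11 (4.77 to 10.97) in B-like cells. C1qb, another complement gene of macrophages, had 1.02 and 0.993 in macrophage-like cells. It had 1.13 (1.01 to 1.28) and 1.11 (0.988 to 1.25) in CD8+ T-like cells. In B-like cells it had 0.938 (0.550 to 1.59) and 1.39 (0.835 to 2.35). In macrophage-like cells there were 0.182 (0.179 to 0.184) and 0.172 (0.1702 to 0.174) UMIs of Ms4a7 per UMI of C1qa, against 0.169 (0.133 to 0.212) and 0.178 (0.142 to 0.221) in CD8+ T-like, 0.162 and 0.149 in Treg-like and 0.219 and 0.176 in NK-like cells. The MWA values of CD4+ T-like cells, 0.121 (0.0874 to 0.165), and of the interferon-induced T-like class, 0.0706 (0.0252 to 0.1601), lay below that of macrophage-like cells. Their MWA plus TIGIT values, 0.198 (0.148 to 0.261) and 0.278 (0.1603 to 0.461), lay above it, with intervals that included it. The thinned share with a UMI of Ms4a7 was 1.99% and 2.55% of CD8+ T-like cells, against 54.1% and 57.2% of macrophage-like cells. The part of free RNA in these counts was not tested.

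The ratios of Ms4a6d and Ms4a4c differed more between macrophage-like and CD8+ T-like cells than that of Apoe did. Ms4a6d had 0.0806 and 0.0786 UMIs per C1qa UMI in macrophage-like cells but 0.319 (0.266 to 0.3799) and 0.349 (0.295 to 0.412) in CD8+ T-like and 0.306 and 0.361 in CD4+ T-like cells. In Treg-like cells it was at 0.114 (0.0769 to 0.163) and 0.112 (0.0749 to 0.163). Ms4a4c had 0.0158 and 0.0152 in macrophage-like cells, 0.383 (0.324 to 0.452) and 0.355 (0.2996 to 0.418) in CD8+ T-like and 0.938 (0.5503 to 1.59) and 1 (0.571 to 1.75) in B-like cells. In Treg-like cells Ms4a4c had 0.0724 (0.0441 to 0.113) and 0.0217 (0.00791 to 0.0479), against 0.141 and 0.118 in NK-like cells. For Ms4a6c the ratio was 0.116 and 0.115 in macrophage-like and 0.146 (0.114 to 0.186) and 0.162 (0.128 to 0.203) in CD8+ T-like cells, a shift near that of Apoe, and 0.272 (0.216 to 0.339) and 0.294 (0.2304 to 0.372) in CD4+ T-like cells. The levels were low: CD8+ T-like cells had 34.2 and 38.5 CPM of Ms4a6d and 15.7 and 17.8 CPM of Ms4a6c, and CD4+ T-like cells 38.4 and 39.8 CPM of Ms4a6d and 34.1 and 32.4 CPM of Ms4a6c. Whether reads of Ms4a6b were placed on Ms4a6d or Ms4a6c in T cells was not tested.

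**Figure D4:**
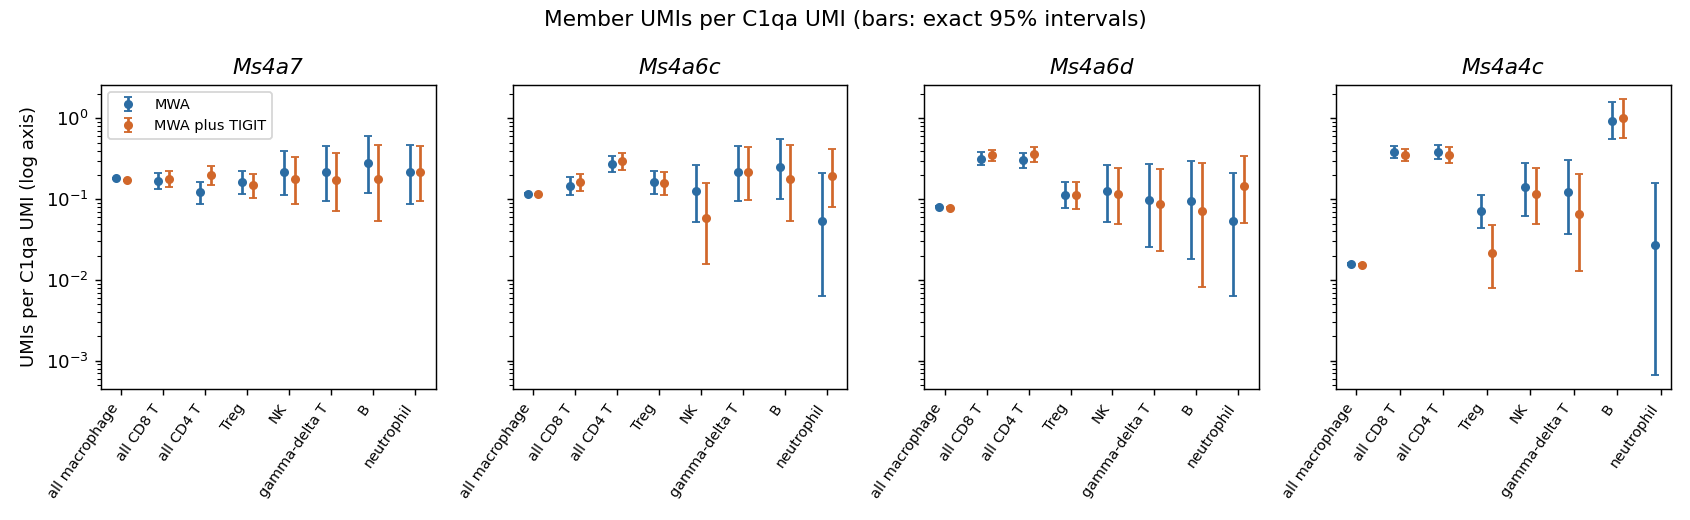
UMIs of Ms4a7, Ms4a6c, Ms4a6d and Ms4a4c per UMI of C1qa (vertical log axis) in 8 cell classes, with points for the 2 libraries and exact 95% intervals as bars. A ratio of 0 in neutrophil-like cells is not drawn. The intervals of Ms4a7 in the lymphoid classes lie around its ratio in macrophage-like cells, with the MWA value of CD4+ T-like cells just below it, and Ms4a4c lies above its macrophage ratio in most lymphoid classes.

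Between the libraries, no member passed 1.5-fold in macrophage-like cells when all of them were summed. The ratios of several members changed sign without the deeper cells. In all macrophage-like cells none of the 7 members with at least 20 UMIs was past 1.5-fold in either direction, where 5.89% of all genes tested were. The log2 ratio was 0.14 (95% interval 0.11 to 0.16) for Ms4a6c, 0.11 (95% interval 0.082 to 0.15) for Ms4a6d, 0.071 (95% interval 0.050 to 0.092) for Ms4a7 and 0.076 (95% interval 0.039 to 0.11) for Ms4a6b. For the scarcer members it was 0.21 (95% interval 0.036 to 0.38) for Ms4a4a, 0.096 (95% interval 0.025 to 0.17) for Ms4a4c and −0.33 (95% interval −0.62 to −0.042) for Ms4a4b, at 6.06 and 4.82 CPM. The median over the 7 members was 0.096, and over all genes tested 0.042. With cells of over 5000 UMIs left out, the limit the study states, 2 members, Ms4a4a and Ms4a4b, were past 1.5-fold, and the ratios were −0.998 for Ms4a4a, −0.57 for Ms4a4c, −0.060 for Ms4a6d and −0.19 for Ms4a7. The share of 5.89% belongs to all macrophage-like cells, and the share of genes past 1.5-fold without the deeper cells is not reported here.

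In CD8+ T-like cells Ms4a6b was higher in the MWA plus TIGIT library, at 387 and 581 CPM, from 1898 and 2900 UMIs. Its log2 ratio was 0.59 (95% interval 0.50 to 0.67), and it was 1 of 6 members, and the only member, past 1.5-fold, where 11.0% of all genes tested were. The ratio lay at the limit itself: with TMM factors, which moved all log2 ratios of this class by −0.13, it was 0.45 and no member was past the limit. Ms4a4b had a ratio of 0.30 (95% interval 0.24 to 0.36), and 0.17 with TMM factors. The median of all genes tested in the class was 0.13. The make-up of the class differed too, with 566 and 832 effector, 323 and 224 exhausted and 277 and 180 stem-like cells. Within these classes the ratio of Ms4a6b was 0.48 (95% interval 0.37 to 0.59) in effector, 0.21 (95% interval −0.0063 to 0.42) in exhausted and 0.28 (95% interval 0.090 to 0.48) in stem-like cells, all smaller than in the sum, and that of Ms4a4b was 0.23 (95% interval 0.16 to 0.31), 0.0050 (95% interval −0.12 to 0.13) and 0.11 (95% interval −0.027 to 0.25). At 1000 UMIs per cell, 33.6% (exact binomial 95% interval 30.8 to 36.4) and 44.3% (41.4 to 47.1) of CD8+ T-like cells had a UMI of Ms4a6b, and 72.5% and 83.1% without thinning.

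Ms4a6b was higher in the MWA plus TIGIT library in most other T cell classes as well. The log2 ratio was 0.49 (95% interval 0.31 to 0.67) in the interferon-induced T-like class, 0.41 (95% interval 0.31 to 0.51) in cycling T cells, 0.41 (95% interval 0.13 to 0.70) in naive T-like cells and 0.14 (95% interval 0.033 to 0.24) in CD4+ T-like cells. The median over all genes tested was 0.11, 0.15, 0.085 and 0.11 in these classes, and with TMM factors the ratio of Ms4a6b in CD4+ T-like cells was 0.027. In Treg-like cells it was 0.0012 (95% interval −0.18 to 0.18). Of the 6 members tested in CD4+ T-like cells none was past 1.5-fold, with 11.6% of genes past it. The Hp monocyte-like class also had more Ms4a6b, at 332 and 508 CPM, with a ratio of 0.61 (95% interval 0.34 to 0.89). There 2 of 7 members, Ms4a6b and Ms4a4a, were past 1.5-fold, in opposite directions, against 20.4% of genes tested, and without cells of over 5000 UMIs none was.

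Ms4a4c differed between the libraries in opposite directions in different classes. It was higher in the MWA plus TIGIT library in Hp monocyte-like cells, with a log2 ratio of 0.56 (95% interval 0.30 to 0.83). It was lower in interferon-induced macrophage-like cells, at 596 CPM (95% interval 556 to 639) in the MWA library and 508 CPM (477 to 539.6) in the MWA plus TIGIT library and a ratio of −0.23 (95% interval −0.37 to −0.097). None of the 7 members was past 1.5-fold in that class, where 14.2% of genes were. In cycling T cells the ratio was −0.58 (95% interval −0.89 to −0.28), with 12.5% of genes past 1.5-fold and no member past it. With cells of over 5000 UMIs left out it was 0.23 (95% interval −0.83 to 1.31), an interval that includes 0. In Treg-like cells, where 13.4% of genes were past 1.5-fold and Ms4a4c was 1 of 6 members that was, the ratio was −1.81 (95% interval −3.41 to −0.45) from 21 and 6 UMIs. In T cells chosen by a Foxp3 UMI without clustering it was 0.048 (95% interval −1.18 to 1.28). For Ms4a4b in Treg-like cells the ratio was −0.40 (95% interval −0.67 to −0.13). In the cells chosen by Foxp3 it was 0.14 (95% interval −0.15 to 0.43), so those cells showed no direction beyond counting error.

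**Figure D5:**
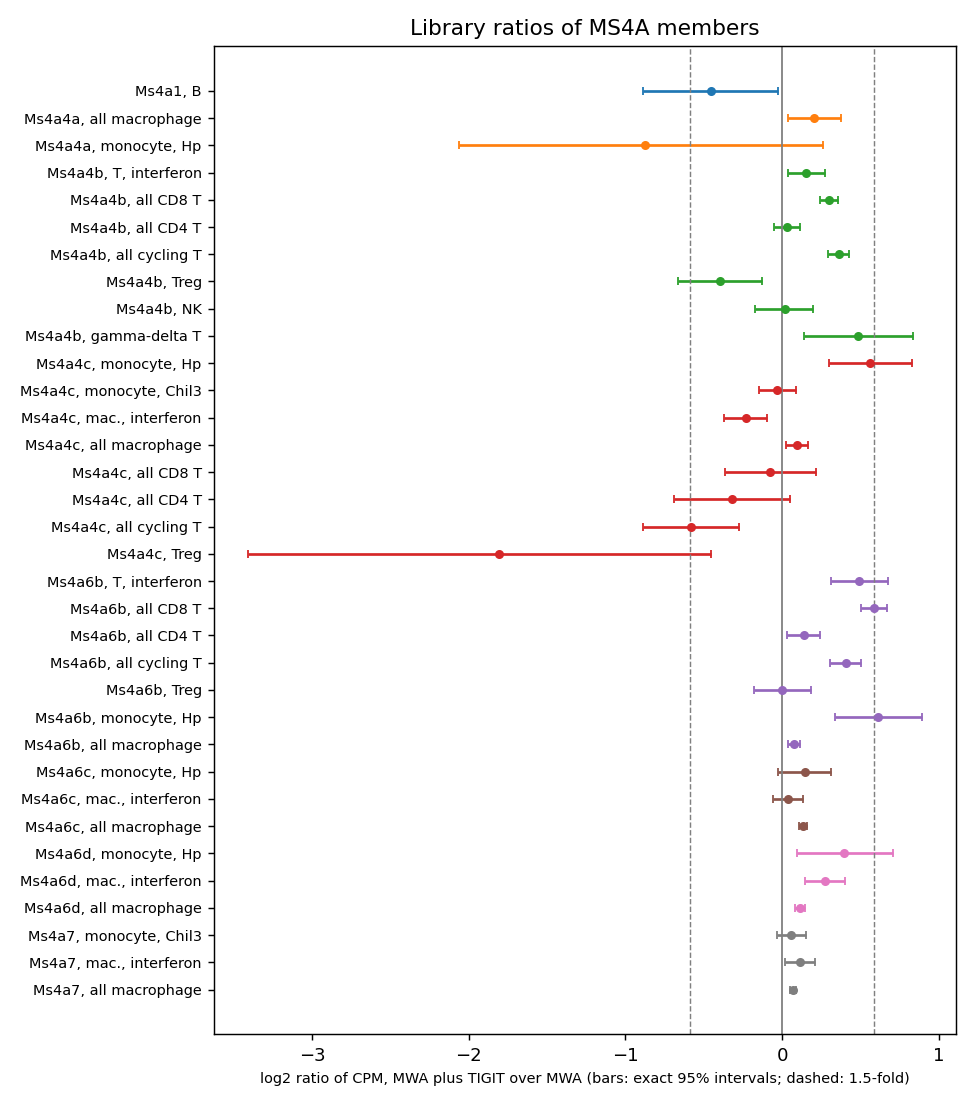
Log2 ratio of CPM, MWA plus TIGIT over MWA (horizontal axis), of the members in the classes named on the left, with exact 95% intervals as bars and dashed lines at 1.5-fold. Ms4a6b lies to the right in the T cell classes other than Treg-like cells, Ms4a4c lies on both sides, and Ms4a6c, Ms4a6d and Ms4a7 lie near 0 in all macrophage-like cells.

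In cDC1-like cells, 65 and 28 in number, 3 of 4 members with at least 20 UMIs were past 1.5-fold, against 25.0% of genes. Ms4a4b had 32 and 0 UMIs, and the 32 lay in 7 cells, while the T cell gene Cd3e had 21 and 0 UMIs. Ms4a7 had 4 and 41 UMIs, 36 of the latter in 1 cell, while C1qa had 117 of its 138 UMIs of that library in 1 cell. Cd3e and C1qa thus differed in the same direction as Ms4a4b and Ms4a7. The other member past the limit, Ms4a6d, had 12 and 15 UMIs, 9 of the latter in 1 cell. In cDC1-like cells chosen by marker UMIs, 54 and 29 in number, Ms4a4b had 2 and 1 UMIs. There Ms4a7 had 3 and 11 UMIs, Ms4a6d 8 and 25, Ms4a6c 22 and 50, Ms4a4c 3 and 25 and Ms4a6b 8 and 21. The intervals of these ratios lay above 0, except that of Ms4a4b. The part of other cell types in the ratios was not tested.

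The members most alike over the 62 profiles of class and library (31 classes with at least 10 cells in each library) were Ms4a6c and Ms4a6d, with a Pearson r of 0.88, and Ms4a4a and Ms4a6c, with 0.87. Ms4a4b and Ms4a4c had −0.040, and Ms4a6b and Ms4a6c 0.077, so the 2 pairs with like upstream sequences had unlike patterns. Among 6647 genes, the 3 most like Ms4a7 were C1qc (0.96), C1qa (0.96), C1qb (0.96), all complement genes of macrophages. Those most like Ms4a6c were Ctss (0.96), Csf1r (0.95), Lrp1 (0.94), where Csf1r is the receptor of a macrophage growth factor, and among those most like Ms4a6d were C3ar1 (0.90), a complement receptor, and Msr1 (0.89), a scavenger receptor of macrophages. For Ms4a1 they included Vpreb3 (0.99) and Fcmr (0.97), and for Ms4a4b Skap1 (0.96), an adaptor of T cell receptor signaling, and Cd96 (0.95). Ms4a6b, with Arl4c (0.78), Fyb (0.78), Bin2 (0.67), and Ms4a4c, with Pou2f2 (0.67), Ikbkb (0.61), Glrx2 (0.61), had weaker matches, and Ms4a4a had Cfb (0.90), Fn1 (0.88), Emilin1 (0.88). The profiles share cells' depth and the 2 libraries, and these values are descriptions.

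In single macrophage-like cells thinned to 1000 UMIs, pairs of members differed in how often they were found together. Ms4a6b and Ms4a6c occurred in 12.6% and 13.8% of cells, against 9.66% and 11.1% from the product of the single shares. Ms4a4c and Ms4a6c occurred together in 3.96% and 4.21% of cells, against 2.63% and 3.35% from the product of the single shares. For Ms4a4c and Ms4a7 these values were 3.63% and 4.21% of cells, against 3.497% and 4.25% from the product of the single shares, so Ms4a4c was found with Ms4a6c more often than the product, and with Ms4a7 about as often as the product. Most other pairs were above their product too, such as Ms4a4c and Ms4a6d, at 3.06% and 3.11% against 2.10% and 2.71%. The product was taken over all macrophage-like classes together, and the part of differences between these classes was not tested. The cells come from 1 library each, and no test was made.

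Of the 11 other Ms4a genes, Ms4a14 had 705 and 976 UMIs in all kept cells, with 18.9 and 21.3 CPM in macrophage-like cells, and Ms4a8a 274 and 388 UMIs, with 23.6 and 45.1 CPM in the Hp monocyte-like class. Ms4a4d had 9 and 12 UMIs, Ms4a2 3 and 2, and Ms4a3, Ms4a5, Ms4a10 and Ms4a12 no more than 3 in a library, and none was found of Ms4a13, Ms4a15 and Ms4a18. The UMIs of Ms4a2, the IgE receptor chain, lay in cells with at least 10 UMIs of the mast cell genes Cpa3, Cma1, Tpsb2 and Mcpt4, of which there were 2 and 4. Fcer1g, the gamma chain that this receptor shares with other Fc receptors, was at 3326 and 3144 CPM in macrophage-like cells, and Fcer1a, the alpha chain of the IgE receptor, had 33 and 1 UMIs. Tmem176a and Tmem176b, relatives of the family with 4 membrane spans, were highest in gamma-delta T-like cells, at 606 and 690.1 CPM and 773 and 698 CPM, where Ms4a4b was lower than in the CD8+ T-like cells.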

How the data were processed

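The data were UMI counts of 2 libraries of CD45+ cells from MC38 tumors, 1 per group. The authors deposited raw counts per gene and cell barcode, whole numbers made with Cell Ranger and the mm10 genome. The matrix header names version 4.0.0 and the submitters' processing notes version 6.1.1. The deposited counts were used as they were, and 0 columns were without a sample.

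Barcodes with under 200 genes (2 and 12 in the MWA and MWA plus TIGIT libraries) or over 10% mitochondrial UMIs (178 and 265) were left out, as were doublets called by likeness to simulated doublets (806 and 786, at 0.8% per 1000 barcodes). The study also states a limit of 5000 UMIs, which 55.2% and 60.3% of barcodes exceed, so it was tried as an alternative only. Cells were clustered with Seurat 5.3.0 in R 4.3.3 without the Ms4a genes, with 2000 variable features, and clusters were named after their markers and leading genes had been seen. The members and all gene lists were chosen with earlier results of these data known.

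UMIs were summed per class and library (Python 3.11.15, SciPy 1.17.1). CPM have exact Poisson intervals, ratios exact conditional binomial and shares Clopper-Pearson intervals, all at 95%. Folds per class covered genes with at least 20 UMIs over both libraries. The ratio intervals and the fold limit were tried on simulated Poisson counts of macrophage-like, CD8+ T-like and Hp monocyte-like cells. Such counts follow the model that the intervals assume. Of simulated doublets added to the kept barcodes, the doublet call found 63.5% and 63.0%. Genes named beside the members were the other Ms4a genes, Tmem176a, Tmem176b, genes of reported partner proteins (1 of them not analysed here), and the 3 genes with the highest correlation of log2(CPM + 1) with each member out of those that reach 50 CPM in some profile. edgeR 4.0.16 gave the TMM factors of an alternative. Other alternatives changed doublet removal, denominator, class definition, thinning, filter and fold limit. Upstream sequences are from RefSeq (GRCm38.p6), gene positions from GENCODE. Protein sequences were not compared, and a few genes that these rules name are not reported here.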

Additional observations from a re-analysis of the deposited data

Results flagged for a closer look

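Ms4a4b stood on different sides of 0 in different classes. In gamma-delta T-like cells its log2 ratio of MWA plus TIGIT over MWA was 0.49 (95% interval 0.14 to 0.84), from 121 and 165 UMIs, and in the macrophage-like class rich in hypoxia genes it was −1.22 (95% interval −2.28 to −0.22), from 25 and 14 UMIs. The second value concerns 5.48 and 2.34 CPM only, and the 4 T cell markers summed to 20.1 and 11.4 CPM in all macrophage-like cells, whose part in the result was not tested.

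Ms4a4c was 0.56 (95% interval 0.30 to 0.83) in Hp monocyte-like cells, from 189 and 341 UMIs, and −1.81 (95% interval −3.41 to −0.45) in Treg-like cells, from 21 and 6 UMIs. In each of the 2 genes both intervals lay on 1 side of 0. With 1 library per group the difference between the classes was not tested.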

How the results depend on the processing

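Of 30 library ratios of members, 15 had the same sign under all alternatives planned for them. The limit of 5000 UMIs per cell changed the most, and it leaves out most macrophage-like cells. Under it the log2 ratio was 0.15 for Ms4a1 in B-like cells and, in all macrophage-like cells, −0.998 for Ms4a4a, −0.57 for Ms4a4c, 0.049 for Ms4a6c, −0.060 for Ms4a6d and −0.19 for Ms4a7. It was −0.092 for Ms4a7 in the Selenop class, −0.37 for Ms4a6d in Hp monocyte-like cells and 0.23 for Ms4a4c in cycling T cells. TMM factors and a denominator without mitochondrial and ribosomal protein genes gave 0.17 and 0.18 for Ms4a4b and 0.45 and 0.46 for Ms4a6b in CD8+ T-like cells, and in macrophage-like cells 0.10 and 0.094 for Ms4a6c, 0.079 and 0.072 for Ms4a6d and 0.036 and 0.029 for Ms4a7. In cells chosen by marker UMIs the ratio in Treg cells was 0.14 for Ms4a4b and 0.048 for Ms4a4c, both with intervals that included 0. Without the plasma-rich cells, chosen after seeing the data, the ratio of Ms4a1 was −0.012.

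Levels under the 5000 UMI limit were 629 CPM of Ms4a1 in B-like cells and 471 CPM of Ms4a4c in Hp monocyte-like cells of the MWA plus TIGIT library. In CD8+ T-like cells of both libraries they were 1074 and 1339 CPM of Ms4a4b and 493 and 750.2 CPM of Ms4a6b, and in macrophage-like cells 22.9 and 11.5 CPM of Ms4a4a, 532 and 550.3 CPM of Ms4a6c and 987 and 867 CPM of Ms4a7, with 409 CPM of Ms4a6d in the MWA plus TIGIT library. In cells chosen by marker UMIs, Ms4a4c was at 452 and 638 CPM in monocytes, Ms4a6c at 622 CPM in MWA macrophages and Ms4a7 at 980.01 CPM in MWA plus TIGIT macrophages. The share of cells with a UMI depended on depth: thinned to 2000 UMIs and unthinned it was 66.7% and 63.04% and then 62.96% and 66.7% for Ms4a1 in B-like cells, 81.6% and 84.6% and then 91.9% and 94.01% for Ms4a4b in CD8+ T-like cells, and 74.03% and 75.6% and then 93.3% and 95.03% for Ms4a7 in macrophage-like cells.

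The count of members past 1.5-fold became 2 in macrophage-like and 2 in interferon-induced macrophage-like cells under the 5000 UMI limit and 0 in Hp monocyte-like cells. Without doublet removal it was 1 in macrophage-like cells. With TMM factors it was 0 in CD8+ T-like and 1 in cycling T cells. At a limit of 2-fold it was 0 in CD8+ T-like and 0 in Hp monocyte-like cells, and with at least 50 UMIs per gene 0 in Treg-like and 1 in Hp monocyte-like cells. For these counts, and for those under alternative settings above, the share of all genes past the limit in the same setting is not reported here. They are therefore not read as a result about the members. The cause of these changes, and of that in the ratio of Ms4a1 without the plasma-rich cells, was not tested.

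No paired analysis was possible because each group had 1 library. A single library per group gives no measure of the spread between mice, and ratios from few UMIs, such as those of Ms4a4c in Treg-like cells, rest on counting alone.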
